A study of Mus musculus with 18 samples.

Results

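The Gimap genes encode GTPases of immunity-associated proteins, and the family examined here was the 8 mouse genes Gimap1, Gimap3, Gimap4, Gimap5, Gimap6, Gimap7, Gimap8 and Gimap9. Members were taken by gene symbol, and they are 8 of the 57010 rows of the count table. The family was chosen by the level of Gimap6, which was lower after stroke. The reason for the choice names no treatment and was read as the vehicle mice, so stroke against no stroke in vehicle mice is described without a test. If the choice also rested on bexarotene mice, the test of Gimap6 for stroke under bexarotene is not independent of it. RNA was sequenced from brain cells of wild-type male mice after dissociation with papain and DNase, a Percoll step, depletion of Ly6G-positive neutrophils and selection of CD11b-positive cells, labelled as microglia and macrophages. Each of 6 groups had 3 libraries, labelled as biological replicates. The groups were young (2 to 4 months) and aged (18 to 20 months) mice without stroke given vehicle (3% DMSO in saline) or bexarotene, and aged mice with stroke by middle cerebral artery occlusion (MCAo) given either agent. Bexarotene activates the retinoid X receptor and was injected into the peritoneum at 5 mg/kg, starting 24 hours after surgery and repeated daily for 2 days, and all groups are labelled day 3. The sources used here do not give the surgery of the mice without stroke or the number of mice in a library, so the p-values measure the spread between these libraries.

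GIMAP proteins are small GTP-binding proteins, many of them anchored to the membranes of organelles, and they are best known from lymphocytes. Loss of some of the members, such as Gimap1 or Gimap5, in mice or rats leaves too few T or B cells, which is why the family is described as one that sets lymphocyte survival. Outside lymphocytes, family members are also transcribed in endothelial and myeloid cells. In the mouse the genes lie side by side on chromosome 6, in the order Gimap8, Gimap9, Gimap4, Gimap6, Gimap7, Gimap1, Gimap5 and Gimap3 in the GENCODE M21 annotation of GRCm38. Gimap6 and Gimap3 are on the minus strand and the others on the plus strand. 1 further protein-coding gene in the cluster, Gm28053, is no member and had 1 count over the 18 libraries.

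Libraries held 7582511 to 11852638 counts without stroke and 16206144 to 29359943 with stroke. Levels are CPM, that is, counts scaled by the library's total over the tested genes and by its TMM factor (trimmed mean of M-values). The labelled cells and treatment were checked with single genes. Itgam, which encodes CD11b, averaged 417 to 623 CPM over the groups, and the homeostatic microglial gene P2ry12 averaged 2279 to 12803 CPM. The bexarotene target Abcg1 averaged 308 to 486 CPM in the bexarotene groups and 95.8 to 126 CPM in the vehicle groups. Of neutrophil genes, S100a8 averaged 80.0 to 260 CPM without stroke, 447 CPM in stroke vehicle and 504 CPM in stroke bexarotene libraries. Ly6g averaged 0.911 to 3.08 CPM over the groups. Markers of the choroid plexus were highest in the library numbered 1 of every group other than stroke with bexarotene, up to 3280 summed CPM, so the results below were also computed without the libraries numbered 1.

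Gimap6, Gimap9 and Gimap1 carried most of the family's RNA. Over all 18 libraries Gimap6 had 7127 counts, Gimap9 had 3517, Gimap1 had 3425 and Gimap5 had 544, and each of these 4 was counted in every library. Gimap4 had 352 counts and Gimap3 had 255. Gimap7 had 69 counts with 0 in 4 libraries, and Gimap8 had 22 counts with 0 in 11 libraries. The filter on low counts kept the first 6 and removed Gimap7 and Gimap8, so 6 of the 8 members were tested. Gimap3 passed only through the stroke libraries (5 of them at or above 1 CPM and none of the others), and Gimap4 had 4 stroke and 4 other libraries at that level. The summed level of all 8 members was 110 ± 6.52 CPM (SD, n = 3) in young vehicle, 80.5 ± 14.7 in young bexarotene, 99.4 ± 6.74 in aged vehicle and 98.7 ± 8.69 in aged bexarotene libraries. It was 27.6 ± 8.35 CPM in stroke vehicle and 28.9 ± 5.55 CPM in stroke bexarotene libraries.

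Levels of different members were compared per kilobase of exon. In young vehicle libraries Gimap6 stood highest with 17.9 ± 0.71 CPM per kb, followed by Gimap9 with 12.98 ± 1.5 and Gimap1 with 6.99 ± 0.38. Their ranges did not overlap. Gimap5 had 0.71 ± 0.23 CPM per kb and Gimap4 0.49 ± 0.15, and the ranges of this pair overlapped. Gimap3 averaged 0.194, Gimap7 0.0625 and Gimap8 0.0364 CPM per kb. In stroke bexarotene libraries the order differed: Gimap9 was first with 5.29 ± 2.00 CPM per kb (3.05 to 6.92), ahead of Gimap1 with 2.41 ± 0.64 and Gimap6 with 2.40 ± 0.94 (1.75 to 3.48). Stroke vehicle libraries had the same first place, with 3.87 ± 0.97 CPM per kb for Gimap9, 2.33 ± 0.79 for Gimap6 and 2.22 ± 0.76 for Gimap1. In both stroke groups the ranges of Gimap6 and Gimap9 overlapped. Some sequence is shared between genes, which bears on counting: of the 50-base stretches of its exons, Gimap3 shares 8.15%, Gimap5 6.84% and Gimap1 35.5% with another gene. For Gimap1 the antisense gene Gimap1os is among them, and reads of a gene and its antisense partner cannot be told apart without strand, which the sources used here do not give. Gimap1os itself had 3 counts in all.

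The start regions of the members are shown because those that moved together with stroke (below) can then be set beside each other. All 8 members matched RefSeq promoter windows of GRCm38.p6 (250 bases before to 50 after the start). Printed for 6 of them are the 100 bases before and 20 after the start, on the gene's strand, with the letters GGAAGT, the core of ETS and PU.1 motifs, in capitals on either strand (ACTTCC when on the other strand). The regions are chr6:48708225-48708344 for Gimap6, chr6:48676035-48676154 for Gimap9, chr6:48738947-48739066 for Gimap1, chr6:48746097-48746216 for Gimap5, chr6:48684478-48684597 for Gimap4 and chr6:48770832-48770951 for Gimap3.
Gimap6: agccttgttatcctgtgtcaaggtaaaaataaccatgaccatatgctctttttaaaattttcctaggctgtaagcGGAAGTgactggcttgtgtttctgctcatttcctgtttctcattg
Gimap9: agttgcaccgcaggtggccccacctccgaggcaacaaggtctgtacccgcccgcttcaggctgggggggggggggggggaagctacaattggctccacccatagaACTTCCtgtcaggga
Gimap1: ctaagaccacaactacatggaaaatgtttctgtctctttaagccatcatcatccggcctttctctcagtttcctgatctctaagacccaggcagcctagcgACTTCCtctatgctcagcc
Gimap5: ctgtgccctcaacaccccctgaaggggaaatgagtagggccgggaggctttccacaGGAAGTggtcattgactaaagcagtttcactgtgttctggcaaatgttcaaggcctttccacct
Gimap4: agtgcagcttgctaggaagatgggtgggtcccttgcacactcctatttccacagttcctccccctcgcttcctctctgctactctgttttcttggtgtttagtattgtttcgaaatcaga
Gimap3: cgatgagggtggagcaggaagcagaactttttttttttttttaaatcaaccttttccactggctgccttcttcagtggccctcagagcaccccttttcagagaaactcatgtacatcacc

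GGAAGT was present in the whole windows of 4 of the 8 members, Gimap1, Gimap5, Gimap6 and Gimap9, and in 23.8% of all 32851 promoter windows. Counting the start base as 1 and the base before it as -1, the match began at -25 in Gimap6, at 6 and 26 in Gimap9, at 2 in Gimap1, and at -216 and -44 in Gimap5. Gimap3, Gimap4, Gimap7 and Gimap8 had no match in these windows. TGTGGT, the core of the RUNX motif, was present in Gimap1, Gimap4 and Gimap7 (16.8% of all windows), and AGGTCA, the core element of nuclear receptors, in Gimap4 alone among the members (16.3%). The interferon response element was in no member's window and in 3.44% of all windows. Both strands were searched for each, and none of these matches is evidence of binding.

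With stroke under bexarotene, the abundant Gimap6, Gimap9 and Gimap1 and the low-count Gimap5 fell, and the low-count Gimap4 rose. Gimap3 is described without its test, because it could be tested only through the stroke libraries, where it was high. The other 5 were called in stroke bexarotene against aged bexarotene libraries, with edgeR's quasi-likelihood test and Benjamini-Hochberg adjustment over 15528 genes. In that comparison 48% of all genes were called (26.8% higher and 21.2% lower with stroke), so a call alone sets the members little apart. Gimap6, by whose fall the family was chosen, had the lowest fold change among them, and its difference from the others was not tested. In bulk samples, fewer cells of a type and less RNA per cell cannot be told apart.

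Gimap6, whose protein binds the ATG8 family of autophagy proteins, had 54.3, 46.0 and 49.1 CPM in the 3 aged bexarotene libraries and 12.2, 6.86 and 6.12 CPM in the 3 stroke bexarotene libraries. Every stroke library was below every library without stroke. The log2 fold change was -2.55 ± 0.24 (SE, n = 3 libraries per group, edgeR adjusted p = 2.09e-07), which is 5.85-fold lower, and 0.676% of the tested genes had a lower fold change. Over 14 alternative settings it stayed between -2.95 and -2.37, and it was called in each of them.

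Gimap1, which mature B and T cells need to survive, had 24.6, 24.3 and 19.5 CPM in the aged bexarotene libraries and 6.38, 6.20 and 9.69 CPM in the stroke bexarotene libraries. These groups did not overlap either, and the log2 fold change was -1.62 ± 0.22 (edgeR adjusted p = 9.59e-06). Gimap9 had 22.8, 15.3 and 25.1 CPM without stroke and 9.67, 5.01 and 11.4 CPM with stroke, again with no overlap. Its fall was the smallest of the 4, with a log2 fold change of -1.26 ± 0.26 (edgeR adjusted p = 5.66e-04). Gimap5 encodes a lysosomal membrane protein whose loss removes peripheral T cells in rats. It had 4.63, 4.25 and 3.85 CPM without stroke and 0.763, 0.725 and 1.30 CPM with stroke. Its counts were low, 38 to 50 per library without stroke and 11 to 28 with stroke, and the groups did not overlap. The log2 fold change of Gimap5 was -2.18 ± 0.42 (edgeR adjusted p = 3.24e-04). Groups lay apart in the downward direction for 25% of all tested genes, and for these 4 members.

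**Figure D1:**
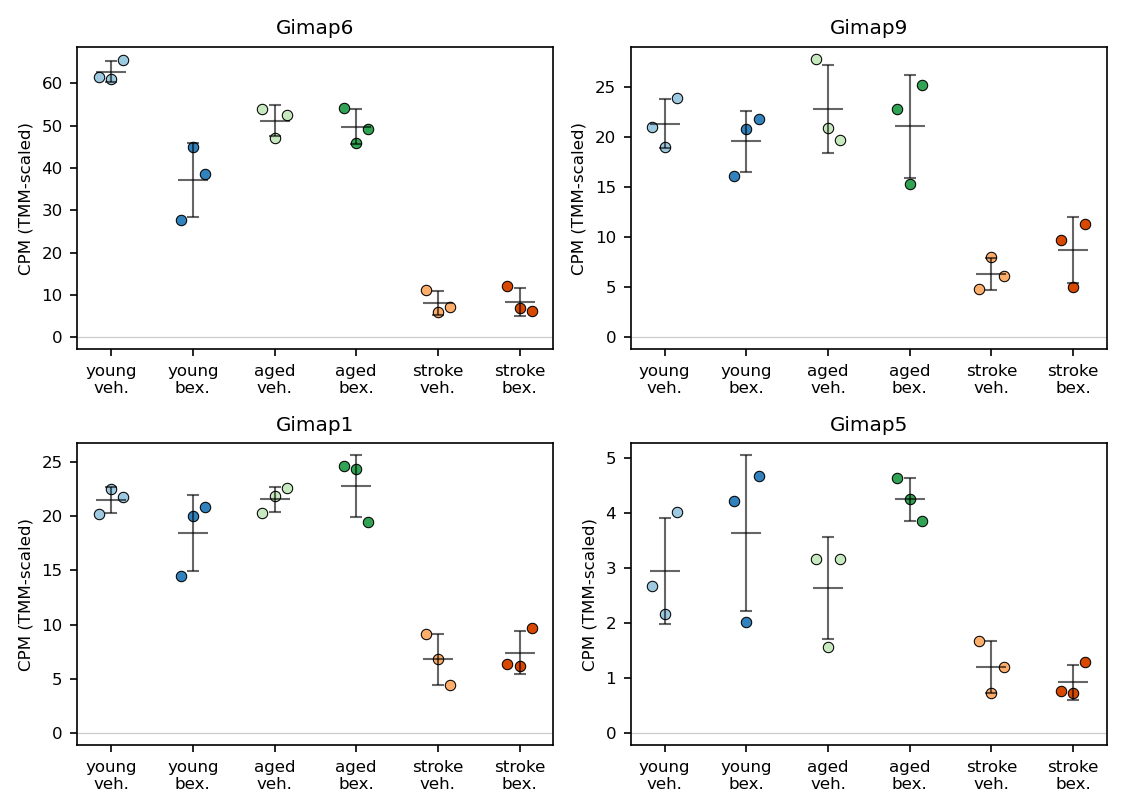
CPM of Gimap6, Gimap9, Gimap1 and Gimap5 in each library (points) of the 6 groups (veh., vehicle; bex., bexarotene), with the mean and SD (bars, n = 3). The stroke libraries of Gimap6, Gimap9 and Gimap1 lie below every library without stroke, while for Gimap5 the highest stroke vehicle library (1.67 CPM) lies above the lowest aged vehicle library (1.57 CPM).

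Gimap4 and Gimap3 had the opposite sign. Gimap3, which encodes a close relative of GIMAP5, had 0.515, 0.0849 and 0 CPM in the aged bexarotene libraries (5, 1 and 0 counts) and 1.80, 1.06 and 1.02 CPM in the stroke bexarotene libraries (52, 16 and 22 counts). The log2 fold change of Gimap3 was 2.69 ± 1.02, given as a description. Gimap4, known for speeding the death of T cells once apoptosis has begun, had 0.618, 0.255 and 0.406 CPM without stroke (6, 3 and 4 counts) and 2.18, 2.51 and 0.602 CPM with stroke (63, 38 and 13 counts). Its groups overlapped, and the log2 fold change was 2.04 ± 0.81 (edgeR adjusted p = 0.0463). The call of Gimap4 was weak, and limma voom did not make it (adjusted p = 0.196). The call of Gimap4 ended without any one of the aged bexarotene libraries, or without stroke bexarotene library 1 or 2 (edgeR adjusted p = 0.0625 to 0.140). Gimap7 had 0.206, 0.0849 and 0.203 CPM without stroke and 0.693, 0.396 and 0.0463 CPM with stroke, and these overlap. Gimap8 had 0 counts in each aged bexarotene library and 0.0347, 0.0659 and 0.0463 CPM in the stroke bexarotene libraries, where its highest count was 1, so no difference was detectable at this depth.

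In vehicle mice, where the choice of the family was made, the values were as follows, as a description. Gimap6 had 53.9, 47.0 and 52.5 CPM in aged vehicle and 11.3, 5.97 and 7.25 CPM in stroke vehicle libraries, a log2 fold change of -2.64 ± 0.25. Gimap9 was lower with stroke by a log2 fold change of -1.85 ± 0.27 and Gimap1 by -1.66 ± 0.22, both with no overlap of the groups (25% of all tested genes lay apart downward in this contrast too). Gimap5 had -1.12 ± 0.42, with overlapping groups (1.57 to 3.17 CPM without and 0.731 to 1.67 CPM with stroke). Gimap3 was at 2.27 ± 0.92 and Gimap4 at 1.79 ± 0.76. Stroke vehicle library 1 had the highest values of both, 3.93 CPM of Gimap3 and 5.36 CPM of Gimap4. The other 2 stroke vehicle libraries had 0.731 and 1.31 CPM of Gimap3, and 0.548 and 1.73 CPM of Gimap4. Without stroke vehicle library 1 the log2 fold change was 1.29 for Gimap3 and 0.62 for Gimap4. Without the libraries numbered 1 of all groups it was 1.53 for Gimap3 and 0.14 for Gimap4.

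**Figure D2:**
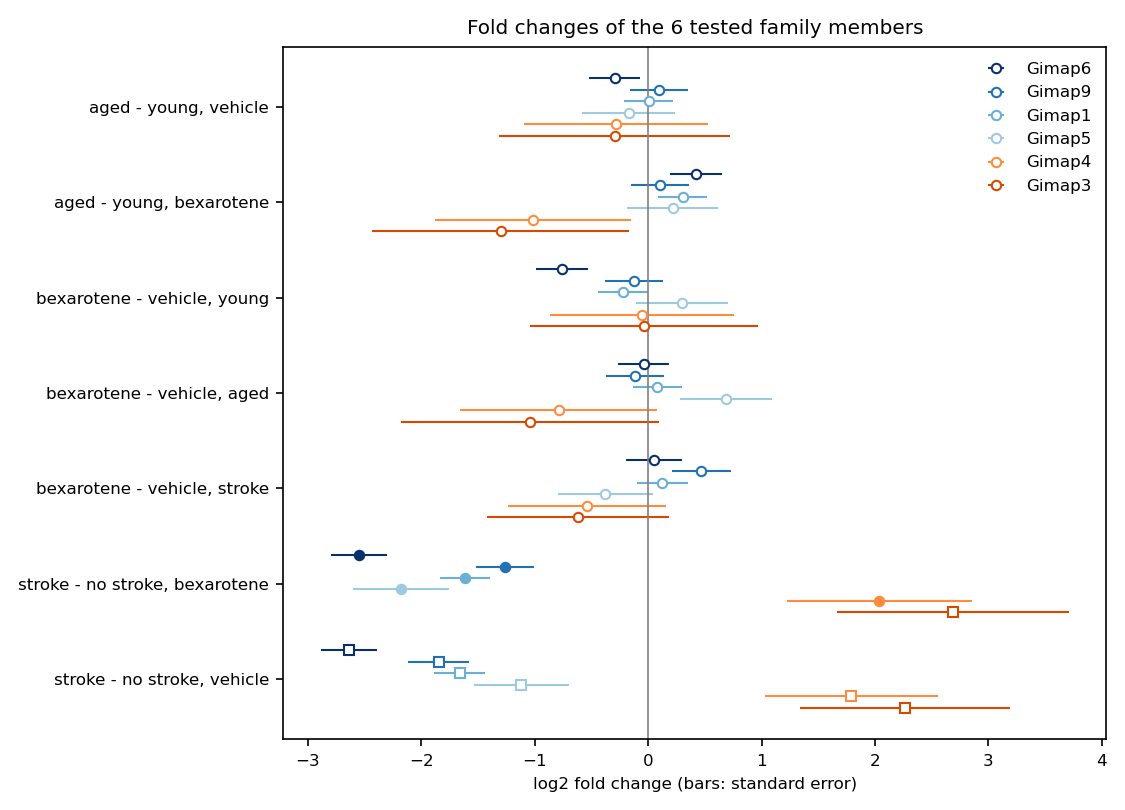
Log2 fold changes of the 6 tested members (colours) with their standard errors (bars) in 7 comparisons, from the fit to all 18 libraries. Filled circles passed an edgeR adjusted p of 0.05, open circles did not, and open squares mark values given without a test (stroke in vehicle mice, and Gimap3 for stroke under bexarotene). Filled circles appear for stroke under bexarotene and in no other comparison shown, from -2.55 for Gimap6 to 2.04 for Gimap4.

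The fall was uneven within the family. Gimap6 made up 50% to 50.9% of the counts of the 8 members in the aged bexarotene libraries, and 20.3% to 36.1% in the stroke bexarotene libraries. The mean share was 50.5 ± 0.47% (SD, n = 3) without stroke and 28.8 ± 7.99% with stroke, and the groups did not overlap. These shares are a description without a test, because the family was chosen by the fall of Gimap6 with stroke. In stroke vehicle libraries the share was 29.5 ± 3.16%. The share taken by Gimap9 was 21.2 ± 4.34% in aged bexarotene and 29.43 ± 7.86% in stroke bexarotene libraries, and that of Gimap1 was 23.2 ± 3.56% and 26.1 ± 6.66%. Gimap4 took 0.423 ± 0.146% without stroke and 6.49 ± 4.49% with stroke.

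**Figure D3:**
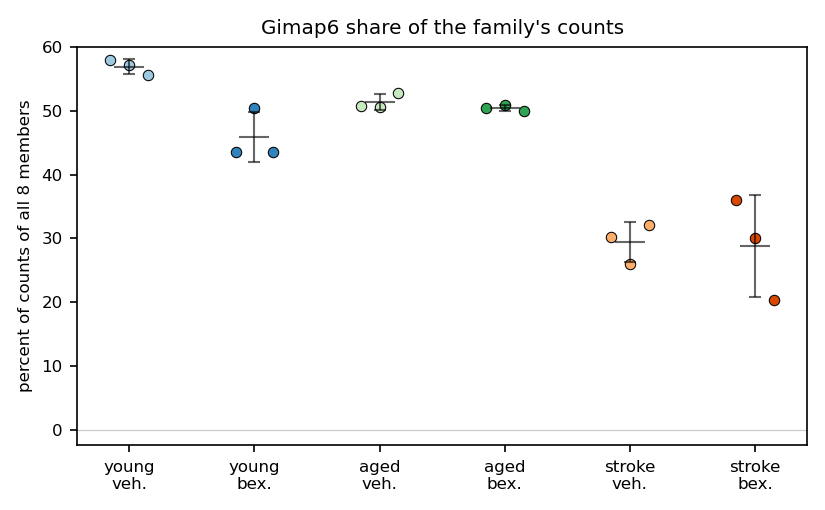
Share of the counts of all 8 members that belonged to Gimap6 in each library (points), with the mean and SD (bars, n = 3), in percent. The 6 stroke libraries lie between 20.3% and 36.1%, and the 12 others between 43.6% and 58.1%.

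Marker RNA of the cell types sampled differed with stroke as well, in a comparison where 26.8% of all genes rose and 21.2% fell. Genes of a list of 14 infiltrating monocyte markers all rose in stroke bexarotene against aged bexarotene libraries (median log2 fold change 4.21, against 0.004 over all genes), and their summed level was 8804 to 17616 CPM with stroke and 2205 to 2250 CPM without. Of 16 homeostatic microglial genes 13 fell and none rose (median -1.21), and their summed level was 26551 to 33962 CPM with stroke and 58125 to 66824 CPM without. The part of these shifts in the values of the family was not tested. Gimap6 and Gimap5 had lower fold changes than each of the 16 homeostatic genes, the lowest of which was P2ry12 with -1.93 ± 0.16. 2 of the 16 (P2ry12 and the transporter gene Slc2a5) were lower than Gimap1, and 7 were lower than Gimap9. In vehicle mice none of the 16 was lower than Gimap6, where P2ry12 had -2.02, and 9 were lower than Gimap5. The difference between a member and these genes was not tested.

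**Figure D4:**
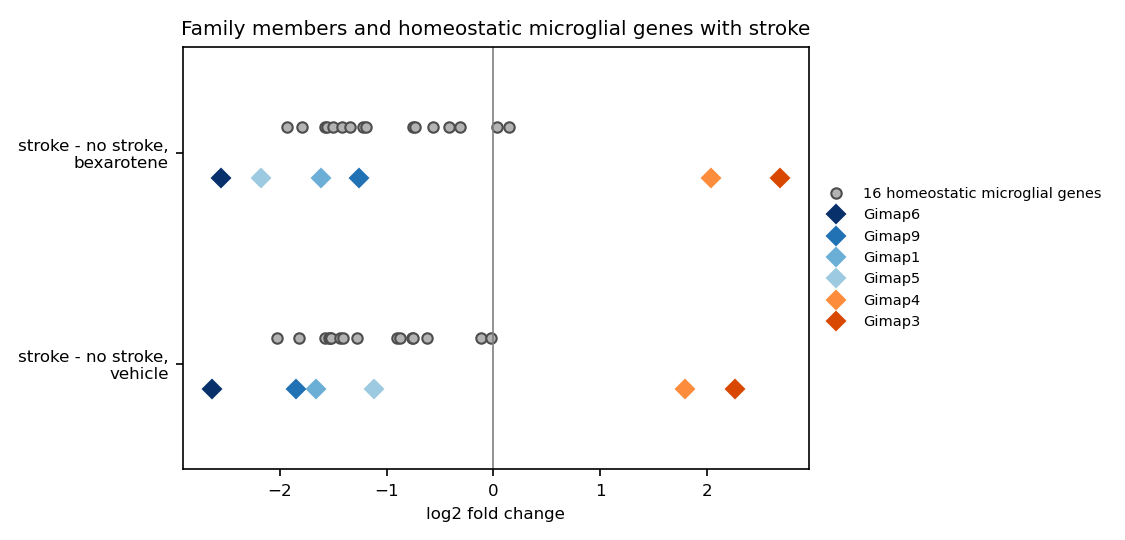
Log2 fold changes with stroke of the 16 homeostatic microglial genes (grey circles) and the 6 tested members (coloured diamonds), under bexarotene and under vehicle. Gimap6 lies to the left of all 16 in both, at -2.55 and -2.64, and Gimap3 and Gimap4 lie to the right of all 16.

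Markers of lymphocytes and endothelium, the other cells that transcribe the family, were compared with the members library by library. Cd3d, Cd3e and Cd3g, subunits of the T cell receptor complex, together had 0 to 3 counts in each of the 12 libraries without stroke, where Gimap6 had 270 to 751 counts and Gimap9 141 to 307. Their summed level was at most 0.309 CPM in those 12 libraries. In the stroke libraries it was 1.33, 0.183 and 1.26 CPM with vehicle (27, 3 and 24 counts) and 1.28, 0.791 and 0.417 CPM with bexarotene (37, 12 and 9 counts). In vehicle, library 2 was thus lowest in these markers, in Gimap4 (0.548 CPM) and in Gimap3 (0.731 CPM), and library 1 was highest in all. With bexarotene, library 3 was lowest in these markers and in Gimap4, and library 1 was highest in the markers and in Gimap3. Gimap4, however, was highest in library 2 there (2.51 CPM, against 2.18 CPM in library 1). This order was not particular to Gimap3 and Gimap4. Gimap6, which fell, and the low-count Gimap7 had the same highest and lowest libraries as the markers in both stroke groups. Gimap6 had 11.3, 5.97 and 7.25 CPM with vehicle and 12.2, 6.86 and 6.12 CPM with bexarotene. Gimap5 matched the markers with vehicle only, and Gimap9 and Gimap1 in neither group. Of the whole list of 22 T cell markers 8 passed the filter. With stroke under bexarotene 1 rose (Ccr7, a homing receptor also present on dendritic cells) and 7 were not called, where 26.8% of all genes rose. The summed level of the list was 20.1 to 36.2 CPM in aged bexarotene and 20.5 to 50.7 CPM in stroke bexarotene libraries. In the vehicle groups it was 30.3 to 35.8 and 20.6 to 64.6 CPM. In both groups of young mice the level was 41.9 to 100.5 CPM, with Il7r among the list's most abundant genes. Cd8a, Cd8b1 and Themis were at 0 in the young groups and in aged bexarotene. The part of T cells in the values of Gimap3 and Gimap4 was not tested.

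**Figure D5:**
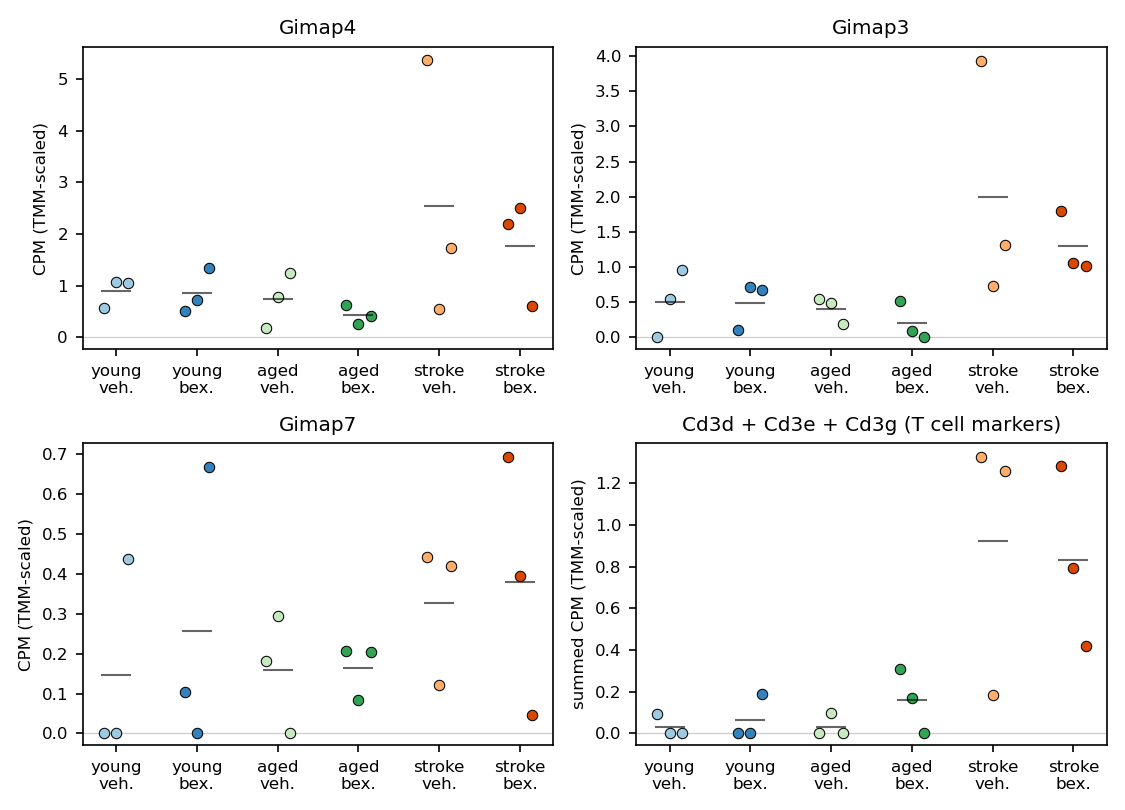
CPM of Gimap4, Gimap3 and Gimap7, and the summed CPM of the T cell markers Cd3d, Cd3e and Cd3g, in each library (points) with the group mean (bars). Stroke vehicle library 1 has the highest Gimap4 (5.36 CPM) and Gimap3 (3.93 CPM), and the T cell markers are at or below 0.309 CPM in every library without stroke.

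Of 14 NK cell markers 8 were tested and 2 rose (Klrd1 and Klrk1), where 26.8% of all genes rose and 21.2% fell. The summed levels of the list were 7.48 to 8.52 CPM in aged bexarotene and 16.6 to 29.1 CPM in stroke bexarotene libraries. The NK cell markers Ncr1 and Klrb1c together had 0.206 to 0.680 CPM in aged bexarotene and 0.139 to 1.19 CPM in stroke bexarotene libraries, which overlap. The endothelial markers Cldn5 and Cdh5 together had 0.618 to 1.52 CPM in aged bexarotene and 1.45 to 1.49 CPM in stroke bexarotene libraries, which overlap. Of 15 endothelial markers 8 were tested, 3 rose and 2 fell, and their summed level was 38.4 to 47.5 CPM in aged bexarotene and 36.0 to 41.8 CPM in stroke bexarotene libraries. These levels, too, were not tested against the members.

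Other genes of the processes the family is known for moved in both directions in the same comparison, where 26.8% of all genes rose and 21.2% fell. Of 15 autophagy genes, which include partners of GIMAP6, 3 rose and 8 fell (median -0.30). Gabarapl1 and Map1lc3a, members of the ATG8 family, fell by 0.83 and 0.76 on the log2 scale, and Ulk1, the kinase that starts autophagy, fell by 0.71, while Gabarap, of the same family, rose by 0.996 ± 0.135. Map1lc3b (-0.07 ± 0.10) was not called. Of 12 genes of the BCL2 family, which controls cell survival, 6 rose and 2 fell: the survival genes Mcl1 and Bcl2 rose by 0.99 ± 0.10 and 1.42 ± 0.28 and the death effector Bax by 0.74 ± 0.10, and Bid fell by 0.59. Of 16 interferon-inducible GTPases, other GTP-binding families of immune cells, 10 rose and 1 (Irgm2) fell, with Mx1 at 3.14 ± 0.25 and Gbp2 at 1.70 ± 0.24. Gimap6, Gimap9, Gimap1 and Gimap5 had the sign opposite to that of most of these GTPases.

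Of 14 transcription factors of lymphocytes 8 were tested, 2 rose and 4 fell, where 26.8% of all genes rose and 21.2% fell. The ETS factors Ets1 and Fli1 fell by 0.93 and 1.11 on the log2 scale, and Foxo1 fell by 0.71. A link of these factors to the start regions of the members was not tested. Runx3 rose by 3.58 ± 0.44 and Klf2 by 1.12 ± 0.26. Of the 20 protein-coding genes within 10 positions of the cluster on either side, 11 were tested, beside 48% of all genes called in this comparison. 1 rose, Gpnmb, a glycoprotein gene of lipid-laden macrophages, from 11.97 to 209 CPM (4.10 ± 0.98), and 4 fell: Lrrc61 (-0.998 ± 0.216), Zfp775 (-0.85 ± 0.27), Repin1 (-0.68 ± 0.14) and Tmem176b (-0.37 ± 0.11). None of these 11 neighbours had a fold change as low as that of Gimap9 (-1.26 ± 0.26), the smallest fall among the members that fell.

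Without stroke, Gimap6 stood lower with bexarotene in young mice, and also in aged against young vehicle mice (below). It had 61.5, 61.0 and 65.5 CPM in young vehicle and 27.7, 45.0 and 38.7 CPM in young bexarotene libraries. The groups did not overlap, as was the case in either direction for 13.1% of all tested genes. The log2 fold change was -0.76 ± 0.23 and did not pass edgeR's test over all genes (adjusted p = 0.223). No member was called in this comparison, in which 0.509% of all genes were, and Gimap6 was the only member with an unadjusted p under 0.05 (8.37% of all genes). DESeq2 and limma voom on all 18 libraries called no member (adjusted p of Gimap6 = 0.0521 and 0.0841). With no filter on low counts edgeR called it (adjusted p = 1.58e-04), as did DESeq2 fitted to the 6 young libraries alone (adjusted p = 0.00291), and over all 14 alternatives the adjusted p ranged from 1.58e-04 to 0.719. In the authors' deposited table for this comparison Gimap6 was among 197 genes listed, with a log2 fold change of -0.59 and an adjusted p of 0.00362. Young bexarotene library 1 had the lowest value, and without it the log2 fold change was -0.59 (edgeR adjusted p = 0.719).

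The groups of every other tested member overlapped in young mice. Gimap9 had 19.0 to 23.9 CPM with vehicle and 16.1 to 21.8 CPM with bexarotene (-0.13 ± 0.26), and Gimap1 had 20.2 to 22.5 and 14.5 to 20.9 CPM (-0.22 ± 0.22). Gimap5 was at 0.30 ± 0.41, Gimap4 at -0.05 ± 0.81 and Gimap3 at -0.03 ± 1.01. Gimap6 accordingly took 57.0 ± 1.18% of the family's counts with vehicle and 45.9 ± 3.92% with bexarotene, with no overlap (exact permutation p = 0.1, the smallest possible).

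In aged mice without stroke bexarotene was followed by no call in the family, against 0.258% of all genes. Gimap6 had 47.0 to 53.9 CPM with vehicle and 46.0 to 54.3 CPM with bexarotene, a log2 fold change of -0.04 ± 0.23. The difference of this effect from that in young mice was 0.72 ± 0.32 (edgeR adjusted p = 1.00, with an unadjusted p under 0.05), so a difference between ages was not shown, 0% of all genes passed that test, and DESeq2 and limma voom called no member in it. Gimap5 had 1.57 to 3.17 CPM with vehicle and 3.85 to 4.63 CPM with bexarotene. These groups did not overlap (11.8% of all genes in either direction), and the log2 fold change of 0.68 ± 0.41 was not called (edgeR adjusted p = 0.861). Members ranged from -1.04 for Gimap3 to 0.68 for Gimap5, none with an unadjusted p under 0.05, and DESeq2 and limma voom called none.

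After stroke, bexarotene again gave no call among the members (0.058% of all genes were called). Gimap6 had 5.97 to 11.3 CPM with vehicle and 6.12 to 12.2 CPM with bexarotene, a log2 fold change of 0.05 ± 0.25. Gimap9 had the highest fold change, 0.47 ± 0.26 (edgeR adjusted p = 0.860), and Gimap3 the lowest, -0.62 ± 0.80. No member had an unadjusted p under 0.05, and DESeq2 and limma voom called none. The stroke effect under bexarotene minus that under vehicle is given without a test, because it contains the contrast that chose the family. It was 0.09 ± 0.33 for Gimap6, 0.04 ± 0.31 for Gimap1, 0.59 ± 0.37 for Gimap9 and -1.06 ± 0.59 for Gimap5.

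Age was compared in vehicle and in bexarotene mice. Among vehicle libraries no member was called, against 1.7% of all genes, and none had an unadjusted p under 0.05 (13.1% of all genes). Gimap6 had 61.0 to 65.5 CPM in young and 47.0 to 53.9 CPM in aged mice. These ranges did not overlap, which held for 18.4% of all genes, and the log2 fold change was -0.29 ± 0.23 (edgeR adjusted p = 0.653). Under bexarotene the sign was the opposite, with 27.7 to 45.0 CPM in young and 46.0 to 54.3 CPM in aged mice (0.42 ± 0.23, edgeR adjusted p = 0.513), again with no overlap (16.8% of all genes), and no member was called against 0.96% of all genes. Gimap1 was at 0.00 ± 0.22 with age in vehicle mice and Gimap9 at 0.09 ± 0.25. Of the family's counts, Gimap6 took 57.0 ± 1.18% in young and 51.4 ± 1.25% in aged vehicle libraries (exact permutation p = 0.1, the smallest possible). Under bexarotene its share was 45.9 ± 3.92% in young and 50.5 ± 0.47% in aged libraries (exact permutation p = 0.2). DESeq2 and limma voom called no member in either comparison. In contrast, 5 of the 16 interferon-inducible GTPases rose with age in vehicle mice and none fell.

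Within groups, libraries high in one member were not uniformly high in the others. Deviations of log2 CPM from the group means over the 18 libraries, which share their depth and scaling within a library, gave Pearson's r of 0.61 between Gimap6 and Gimap3 and 0.60 between Gimap6 and Gimap4. Between Gimap6 and Gimap9 r was 0.04, between Gimap6 and Gimap5 0.06, and between Gimap6 and Gimap1 0.22. Gimap4 and Gimap9 had -0.50. These values are descriptions. Among 10778 genes with a symbol and a mean of at least 5 CPM, the 5 whose deviations were most like those of Gimap6 were Sox4 (0.89), Adamts16 (0.84), Polb (0.83), Ypel3 (0.82) and Map1lc3a (0.82). For Gimap4 they were Cd74 (0.89), Cd200r1 (0.89), H2-Eb1 (0.88), H2-Aa (0.84) and H2-Ab1 (0.84), of which 4 encode the class II antigen-presentation molecules or their chaperone. For Gimap3 they were Cd300c2, H2-T22, Shb, Borcs8 and Sprtn (0.81 to 0.86). For Gimap1 they were led by Trp53i11 and Pgrmc1 (0.89 and 0.88), for Gimap9 by Zscan26 (0.88) and for Gimap5 by Tyw3 (0.86). Over the 6 group means, which mainly separate stroke from no stroke, the genes most like Gimap6 were Gm5454, Wac, Dpy19l3, Insig2 and Ptprm, with r of 0.998 to 0.999.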

How the data were processed

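RNA from CD11b-selected brain cells was measured in 18 libraries of 6 groups. The authors deposited whole-number counts per gene, with no normalization, under Ensembl identifiers. Per the submitters' processing notes the build was GRCm39, with Trimmomatic 0.40, STAR 2.7.10a, GATK and R 4.4.2. The sources used here do not name the counting tool, the annotation or the strand setting. Further tables that the authors deposited hold 4 comparisons of theirs, with a log2 fold change, a p-value, an adjusted p-value and a mean signal of normalized counts per gene. Reference symbols (GENCODE M21, GRCm38) named 52029 genes, the deposited tables raised this to 52033, and the 4977 unnamed genes held 0.326% of counts.

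Counts were tested with edgeR 4.0.16 (R 4.3.3): filterByExpr left 15528 genes, TMM factors were 0.937 to 1.05, and 1 robust quasi-likelihood fit covered all libraries (12 residual degrees of freedom). Calls used a Benjamini-Hochberg adjusted p under 0.05 over all genes, and standard errors came from the F statistic. The script was tested on simulated data. Alternatives were DESeq2 1.42.0, limma 3.58.1 voom, other scaling, no filter, the groups of a comparison alone, a replicate block and libraries left out. Counting error alone does not account for replicate differences (chi-square per degree of freedom 5.77 to 36.2), and no 2 libraries of a group agreed within sampling noise.

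Same-numbered libraries had correlated deviations above an r of 0.1 in all 3 pairs between the young groups (r of 0.140 to 0.276) and between the bexarotene groups without stroke (0.109 to 0.300), and not in all 3 pairs of the other comparisons, with 0.0299 to 0.129 between aged and stroke bexarotene libraries. The difference of the stroke effects between treatments was fitted, but its test is not used. The text names all 8 members, list genes by lowest p among those called or by highest level, and the 5 genes most alike. Values of some marker lists are not reported here. Members and lists were chosen with earlier results of these data known.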

Additional observations from a re-analysis of the deposited data

How the results depend on the processing

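Outside stroke under bexarotene, the number of called members moved only for bexarotene in young mice. There 1 member, Gimap6, was called in place of 0 with no filter on low counts, where 457 of 31653 genes were called in place of 79, and 1 with DESeq2 on the 6 young libraries alone, an alternative chosen after seeing the data, where 197 were called. The cause was not tested. Leaving out 1 library at a time gave 0 called members in every tested comparison other than stroke under bexarotene. There, with Gimap3 left aside, Gimap1, Gimap5, Gimap6 and Gimap9 stayed called each time, and Gimap4 only without stroke bexarotene library 3. In those fits 6172 to 6978 of 15920 to 15998 genes were called. With the replicate block Gimap4 had an edgeR adjusted p of 0.0537 for stroke under bexarotene, and no member's call in the other comparisons changed. Each aged bexarotene library correlated best with the stroke bexarotene library of its own number, a hint from the data and not from the design. Without the libraries numbered 1, Gimap4 had 0.0703 there. Gimap1, Gimap5, Gimap6 and Gimap9 were called for stroke under bexarotene in each of 14 alternatives. Counts of calls over all genes depended on the tool: DESeq2 called 522, 347, 209, 91 and 59 genes where edgeR called 264, 149, 79, 40 and 9 (age with vehicle, age with bexarotene, and bexarotene in young, aged and stroke mice), and limma voom called 148, 85, 58, 18 and 29. Depth limits Gimap3, Gimap4, Gimap5, Gimap7 and Gimap8, each with at most 109 counts in a library.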
